A study of Mus musculus with 6 samples.

Results

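The nuclear genes of the respiratory chain were followed in B cells that had lost Eif3e, which encodes part of eIF3, a factor that starts translation. A row of the gene table was taken in when its symbol began with Nduf, Uqcr or Atp5, or with Cox followed by a digit from 4 to 8, or was Sdha, Sdhb, Sdhc, Sdhd, Cyc1 or Cycs. No measured value entered this rule, which found 94 of the 24499 genes in the table. They encode 85 structural proteins, cytochrome c included, plus 9 proteins that the symbols take in although they are assembly factors or carry an ATP synthase symbol without being part of the enzyme.

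Naïve splenic B cells of cKO mice (Eif3e fl/fl Cγ1Cre Rosa26-YFP LSL) and control mice (Cγ1Cre Rosa26-YFP LSL) were cultured on 40LB feeder cells, fibroblasts irradiated with 120 Gy that express CD40L and BAFF, in medium with 1 ng/ml IL-4. In this system B cells take on features of germinal centre B cells and are termed iGCBs. Both groups carry the Cre recombinase, which is switched on with transcription of the immunoglobulin γ1 constant region, and both were sorted for the YFP that Cre activates, so that the floxed Eif3e alleles separate the groups. Polyadenylated RNA was sequenced on day 3 from 3 cKO and 3 control mice of the C57BL/6J background, with 1 library per mouse. The age of the mice was not given for these cultures, and the labels' general culture protocol gives 4 days where the sample labels give 3.

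The respiratory chain sits in the inner mitochondrial membrane. Complex I takes electrons from NADH and complex II takes them from succinate. Complex III passes them on to cytochrome c, complex IV hands them to oxygen, and complex V, the ATP synthase, uses the resulting proton gradient to make ATP. Most subunits are encoded in the nucleus, whereas a small set, the catalytic core of complex IV among them, is encoded in mitochondrial DNA. None of the mitochondrially encoded subunits had a row in the gene table, so that only the nuclear share of each complex is described. Naïve B cells are metabolically quiet, and activation is known to increase mitochondrial mass and respiration.

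Libraries held 39079582 to 45504570 assigned counts, and 3 counts corresponded to 0.0661 to 0.0763 CPM, counts scaled to the TMM-adjusted size of each library. Eif3e was at 173, 150 and 152 CPM in cKO and at 424, 401 and 392 CPM in control libraries, a log2 fold change of -1.36 ± 0.07 (SE; edgeR adjusted p = 6.71e-07). Thus the transcript was reduced in every library labelled cKO and not absent. The summed level of 6 B cell markers was 4037 to 4151 CPM in cKO and 3887 to 4209 CPM in control libraries. The 13 fibroblast markers, which feeder cells would bring in, summed to 110 to 135 CPM in cKO and 79.8 to 146 CPM in control libraries. Lum and Postn were at 0 in all 6 libraries. Of the 10 fibroblast markers tested, 3 were higher in cKO and none was lower. The 3 were Col5a1 and Fn1 (log2 fold changes 1.61 and 1.07) and Fbn1, with 207, 139 and 172 counts against 0 in each control library. The other 7 had estimates below 0 and did not pass, Col1a1 at -0.42 and Thy1 at -0.58 among them, and the median over the 10 was -0.27. Germinal centre markers summed to 236 to 243 CPM in cKO and to 264 to 309 CPM in control libraries, and the 3 plasma cell markers to 37.3 to 42.9 and 117 to 198 CPM. The plasma cell markers did not move together, with Jchain and Prdm1 lower (log2 fold changes -4.00 and -1.13) and Sdc1 higher in cKO (1.60). T cell markers summed to at most 0.355 CPM in any library, with Cd3e at 0, and the 5 macrophage markers to 12.1 to 13.6 CPM in cKO and 9.90 to 12.7 CPM in control libraries. Of the 3 macrophage markers tested, Adgre1 was higher in cKO (log2 fold change 1.96), and Cd68 at -0.32 and Itgam at -1.08 did not pass. The part of these marker levels in the results below was not tested, and in such bulk samples a change in the share of a cell type cannot be told apart from a change in RNA per cell. The mice were of both sexes, with high Xist in 1 cKO and 2 control libraries.

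Of the 94 genes, 89 passed the filter on low counts and were tested together with all other genes (edgeR quasi-likelihood test, Benjamini-Hochberg adjustment over 13296 genes). In cKO cells 37 of the 89 were higher and 5 were lower at an adjusted p under 0.05, and 47 did not pass. Over all genes tested, 24.1% were higher and 24.5% were lower, so that 41.6% of the respiratory chain genes stood against 24.1% in the upward direction and 5.62% against 24.5% in the downward direction. Exonic bases are shared with another annotated gene by 32 of the 94, and reads there may be assigned to either when strand is not used. A similar split was seen above 10 CPM, where 35 of 82 respiratory chain genes were higher and 4 were lower, against 29.4% and 31.6% of 8514 genes.

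The changes were small. The median log2 fold change was 0.11 for the respiratory chain genes and -0.004 for all genes tested, and 65 of the 89 values were positive. In absolute size, the median was 0.21 for the respiratory chain genes and 0.35 for all genes. An adjusted p under 0.05 together with a change over 1.5-fold was reached by 8 members (6 higher, 2 lower) of the 89, against 21% of all genes. For 51 members all cKO libraries lay on 1 side of all control libraries, above them for 45 and below them for 6. By direction, 50.6% of the 89 lay above and 6.74% below, beside 29.2% and 29.5% of all genes. The share in either direction, 57.3%, was close to the 58.7% of all genes.

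**Figure D1:**
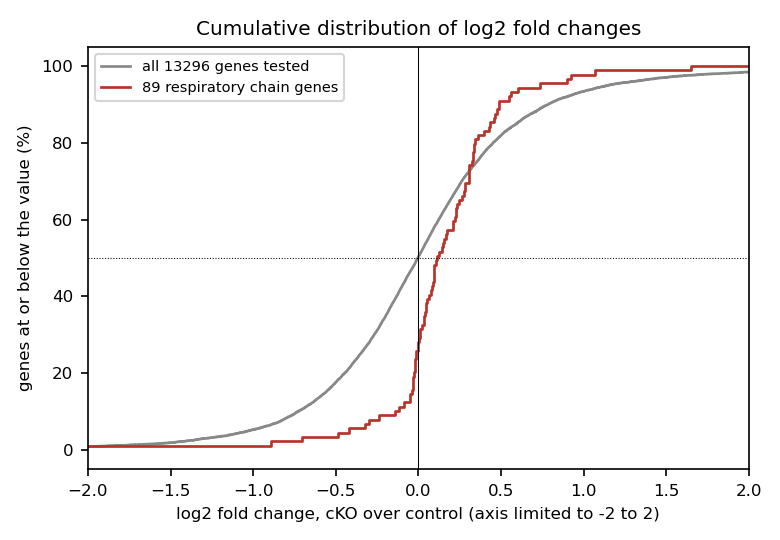
Share of genes (vertical axis, percent) at or below each log2 fold change of cKO over control (horizontal axis, limited to -2 to 2) for the 89 respiratory chain genes tested (red) and all 13296 genes tested (grey). The red curve crosses 50% at 0.11 and rises more steeply than the grey curve, which crosses 50% at -0.004.

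**Figure D2:**
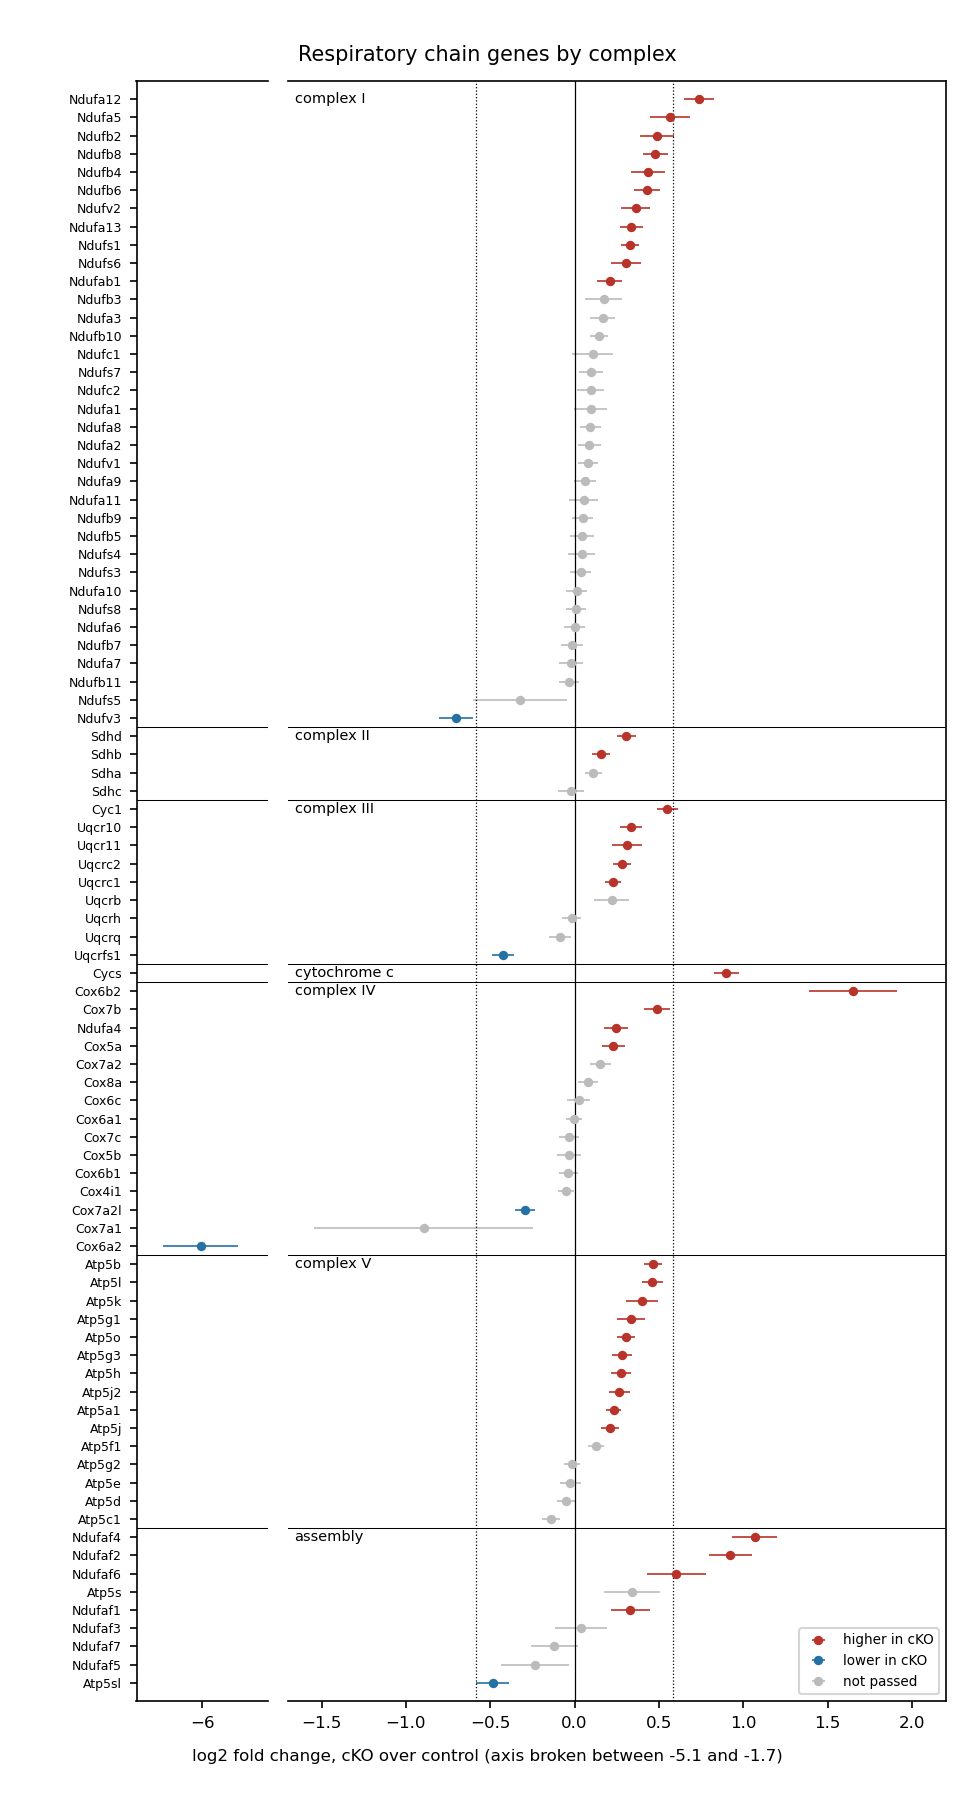
Log2 fold change of cKO over control (horizontal axis, broken to take in Cox6a2) for tested respiratory chain genes, grouped by complex. Points are estimates with bars of 1 SE from 3 cKO and 3 control libraries, red and blue mark genes with an adjusted p under 0.05, and dotted lines mark a change of 1.5-fold. In complex V 10 of 15 genes are red and none is blue, and in complex IV Cox6a2 and Cox6b2 lie farthest from 0.

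Complex I is the largest of the complexes and here had 36 members, all of them tested. Of these, 11 were higher, 1 was lower and 24 did not pass, and the median log2 fold change was 0.09. The shares, 30.6% higher and 2.78% lower, stand beside 24.1% and 24.5% of all genes. The 7 core subunits, which hold the flavin and the iron-sulfur clusters, had 2 higher and none lower, and all 7 estimates were above 0. The share higher, 28.6%, was near that of all genes. Ndufs1, the large iron-sulfur subunit, was at 101, 107 and 103 CPM in cKO and at 85.5, 80.5 and 82.4 CPM in control libraries, which did not overlap (log2 fold change 0.33 ± 0.05, SE; adjusted p = 0.000625). Its exons overlap those of Eef1b2 on the opposite strand, which had 36631 to 62260 counts and was also higher (log2 fold change 0.52), and the strand setting used in counting was not given. Ndufv2, an iron-sulfur subunit of the NADH-oxidising module, was at 113, 115 and 101 CPM in cKO and at 96.1, 76.2 and 83.9 CPM in control libraries (log2 fold change 0.36 ± 0.09; adjusted p = 0.00572). The core subunits Ndufs3, Ndufs7, Ndufs8 and Ndufv1 had log2 fold changes between 0.01 and 0.10, with adjusted p-values from 0.283 to 0.932.

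Among the 29 accessory subunits of complex I, which surround the core and stabilise it, 9 were higher (31.0%) and 1 was lower (3.45%). Ndufa12, which sits where the peripheral arm meets the membrane arm, was at 38.3, 44.2 and 39.5 CPM in cKO and at 24.9, 22.8 and 25.5 CPM in control libraries. Every cKO library lay above every control library, by 1.67-fold on average (log2 fold change 0.74 ± 0.09; adjusted p = 8.93e-05). Ndufa5 was at 29.0, 39.0 and 29.7 CPM in cKO and at 21.4, 23.0 and 21.7 CPM in control libraries (log2 fold change 0.56 ± 0.12; adjusted p = 0.00286), with cKO replicate 2 above the other two. The remaining 7 accessory subunits that were higher (Ndufb2, Ndufb8, Ndufb4, Ndufb6, Ndufa13, Ndufs6 and Ndufab1) had log2 fold changes from 0.21 to 0.49. Ndufab1 is also the mitochondrial acyl carrier protein. Its call was lost without any 1 of cKO replicates 1 to 3 (adjusted p = 0.0987, 0.0505 and 0.13) or control replicates 2 and 3 (0.141 and 0.0711), and that of Ndufs6 without cKO replicate 1 (0.0576) or 2 (0.0535) or control replicate 2 (0.0559).

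Ndufv3 was the complex I gene that went the other way. It encodes a small accessory subunit of the NADH-oxidising module, made in a short and a long form by alternative splicing. Its level was 76.5, 71.1 and 55.9 CPM in cKO and 113, 110 and 109 CPM in control libraries (log2 fold change -0.70 ± 0.10; adjusted p = 0.000234). The control libraries lay close to each other and above all cKO libraries, of which replicate 3 was the lowest. The 2 RefSeq transcripts of Ndufv3 fell together, since NM_001083891 made up 62.6% ± 1.48 (SD, n = 3) of its counts in cKO and 61.9% ± 2.73 in control libraries. Ndufs5 stood apart for its low level, with 102 to 120 counts in cKO and 105 to 176 in control libraries, against 767 or more in every library for each of the other 35 genes, and it did not pass the test (log2 fold change -0.33 ± 0.28; adjusted p = 0.368).

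Complex II, succinate dehydrogenase, is the complex encoded wholly in the nucleus, and it also serves the tricarboxylic acid (TCA) cycle. Of its 4 subunits 2 were higher and none was lower, beside 24.1% and 24.5% of all genes. Sdhd, a membrane anchor, was at 102, 102 and 101 CPM in cKO and at 81.7, 78.4 and 87.4 CPM in control libraries (log2 fold change 0.31 ± 0.06; adjusted p = 0.0013). Sdhb, the iron-sulfur subunit, was at 100.0, 96.3 and 92.2 CPM in cKO and at 86.6, 84.8 and 87.6 CPM in control libraries. Its change was small (log2 fold change 0.16 ± 0.05; adjusted p = 0.0349), and the call was lost without cKO replicate 1 (adjusted p = 0.0997) or 2 (0.0972) and without control replicate 1 (0.0999) or 2 (0.105). Sdha, which binds the flavin, had a log2 fold change of 0.11 ± 0.05 (adjusted p = 0.088), and Sdhc, the other anchor, had one of -0.02 ± 0.08 (adjusted p = 0.86).

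In complex III, 5 of 9 genes were higher (55.6%) and 1 was lower (11.1%), beside 24.1% and 24.5% of all genes. The electron-carrying subunits moved in opposite directions. Cyc1, the haem-bearing cytochrome c1, was at 140, 155 and 153 CPM in cKO and at 97.6, 98.6 and 110 CPM in control libraries (log2 fold change 0.55 ± 0.06; adjusted p = 7.33e-05). Uqcrfs1, the Rieske iron-sulfur protein, was at 112, 98.2 and 109 CPM in cKO and at 146, 134 and 147 CPM in control libraries (log2 fold change -0.42 ± 0.07; adjusted p = 0.000436). For both genes the groups did not overlap. The core proteins Uqcrc1 and Uqcrc2, which have no redox centre, were higher, with log2 fold changes of 0.23 ± 0.05 (adjusted p = 0.00278) and 0.28 ± 0.05 (adjusted p = 0.00153). Uqcr10 and Uqcr11, small membrane subunits, were higher by 0.33 and 0.31 on the log2 scale, while Uqcrh, Uqcrq and Uqcrb did not pass. Uqcr11 lost its call without cKO replicate 2 (adjusted p = 0.0523) and without control replicate 1 (0.0547) or 2 (0.0532).

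Cycs encodes cytochrome c, the mobile carrier between complexes III and IV, which is also known for its role in apoptosis once it leaves mitochondria. It was at 81.5, 93.2 and 88.9 CPM in cKO and at 49.0, 43.3 and 49.1 CPM in control libraries. All 3 cKO libraries lay well above the controls, by 1.86-fold (log2 fold change 0.90 ± 0.07; adjusted p = 8.85e-06). This was the largest change among the structural genes above 10 CPM. Cyc1, its electron donor in complex III, was higher by 1.46-fold. The subunit of complex IV that takes electrons from it is encoded in mitochondrial DNA and had no row in the table.

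Complex IV, cytochrome c oxidase, had 20 genes in the table, of which 15 were tested. Here 4 were higher, 2 were lower and 9 did not pass, and the median log2 fold change over the 15 was -0.003. The share higher, 26.7%, was near the 24.1% of all genes, and 13.3% were lower, against 24.5%. Several of its nuclear subunits exist as alternative isoforms, with a form made in most cells and a form known from heart and skeletal muscle, lung or testis. Among the widely made forms, Cox4i1, Cox6a1 and Cox6b1 were close to their control levels. Cox4i1 was at 380, 401 and 379 CPM in cKO and at 394, 403 and 403 CPM in control libraries (log2 fold change -0.05 ± 0.05; adjusted p = 0.422). Cox6a1 and Cox6b1 had log2 fold changes of -0.003 ± 0.05 (adjusted p = 0.966) and -0.04 ± 0.06 (adjusted p = 0.616).

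Cox6a2, the isoform of subunit 6a known from heart and skeletal muscle, was the most strongly changed gene of the whole respiratory chain. It had 10, 4 and 0 counts in cKO and 299, 322 and 256 counts in control libraries. Scaled by depth, this was 0.22, 0.0889 and 0 CPM against 6.63, 8.19 and 6.22 CPM, and the fitted log2 fold change was -6.02 ± 0.51 (adjusted p = 1.02e-05). It passed the filter on low counts through its control libraries. The gene lies at chr7:128205435-128206387 (GRCm38, minus strand) and shares exonic bases with Itgad on the opposite strand, which had 0 to 22 counts in any library. On a scale that divides by transcript length (CPM per kilobase), control cells had 10.3 ± 1.53 (SD, n = 3) of Cox6a2 beside 320 ± 5.17 of Cox6a1, and cKO cells had 0.152 ± 0.163 of Cox6a2 beside 320 ± 7.47 of Cox6a1. Hence the change in Cox6a2 concerned the minor isoform, and the level of Cox6a1 differed by less than the spread between libraries.

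Cox6b2, the isoform of subunit 6b known from testis, moved the other way. It had 200, 253 and 232 counts in cKO and 63, 90 and 52 counts in control libraries, which is 4.41, 5.62 and 5.47 CPM against 1.40, 2.29 and 1.26 CPM. The groups did not overlap, and the log2 fold change was 1.65 ± 0.26 (adjusted p = 0.000509). It too was the minor form, at 9.61 ± 1.36 CPM per kilobase in cKO and 2.95 ± 1.00 in control cells, beside 160 ± 8.37 and 164 ± 1.21 for Cox6b1. In RefSeq promoter windows (250 bases before to 50 after the start), the letters CCGGAAG, the core of an ETS factor motif, were found once for Cox6b1 and not for Cox6b2. Any link between these letters and the level of either gene was not tested.

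The other isoform families of complex IV gave smaller differences. Cox7a2l was at 262, 257 and 263 CPM in cKO and at 336, 332 and 293 CPM in control libraries (log2 fold change -0.30 ± 0.06; adjusted p = 0.00216). Cox7a2 had a log2 fold change of 0.15 ± 0.06 that did not pass (adjusted p = 0.0684). Cox7a1, the muscle form, had 5, 18 and 36 counts in cKO and 35, 40 and 30 counts in control libraries, and the groups overlapped (log2 fold change -0.89 ± 0.65; adjusted p = 0.287). Cox7b, a small subunit, was higher at 104, 114 and 96.8 CPM against 75.3, 68.3 and 80.5 CPM (log2 fold change 0.49 ± 0.08; adjusted p = 0.000519). Cox5a, a matrix-side subunit, was higher (log2 fold change 0.23 ± 0.07; adjusted p = 0.0191), and so was Ndufa4, a complex IV subunit that keeps a complex I name (log2 fold change 0.25 ± 0.07; adjusted p = 0.0148). The call for Cox5a was lost without cKO replicate 2 (adjusted p = 0.0875) and without control replicate 2 (0.0658) or 3 (0.0549), and that for Ndufa4 without cKO replicate 2 (0.0755) and without control replicate 1 (0.0554) or 2 (0.0608). Cox5b did not pass (log2 fold change -0.03 ± 0.07; adjusted p = 0.725).

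5 genes fell below the filter on low counts and were not tested. Cox7b2 and Cox8c were at 0 counts in all 6 libraries. Cox8b had 5 counts in cKO replicate 1 and 0 elsewhere, Cox4i2 had 0 to 3 counts, and Ndufa4l2 had 0 to 2 counts in cKO and 0 to 12 counts in control libraries. For these isoforms a difference was not detectable at this depth. Cox8a, the form of subunit 8 made in most cells, had a log2 fold change of 0.08 ± 0.06 (adjusted p = 0.309).

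**Figure D3:**
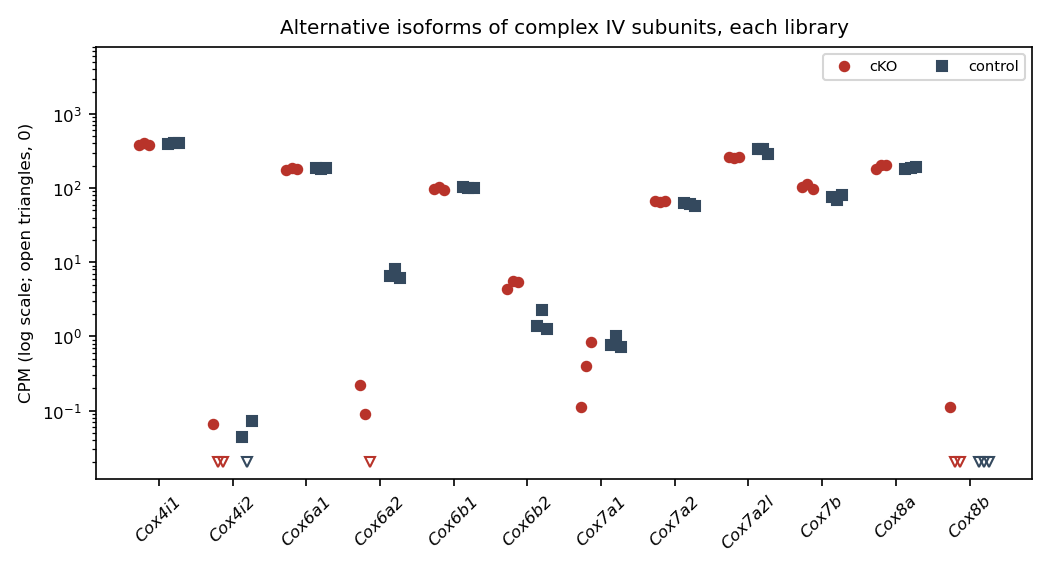
CPM on a log scale (vertical axis) of complex IV subunits with alternative isoforms in each of 3 cKO (red circles) and 3 control libraries (dark squares), with open triangles at the bottom for 0 counts. Cox6a2 lies at 6.22 to 8.19 CPM in control and at 0 to 0.22 CPM in cKO libraries, Cox6b2 lies higher in cKO, and Cox4i1, Cox6a1 and Cox6b1 overlap between the groups.

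Of the complexes, V had the largest share of higher genes. Of its 15 members 10 were higher, none was lower, and the median log2 fold change was 0.27. The share higher was 66.7%, against 24.1% of all genes. Atp5b, the catalytic β subunit, was the most abundant of them at 1508, 1594 and 1428 CPM in cKO and 1112, 1028 and 1138 CPM in control libraries (log2 fold change 0.47 ± 0.05; adjusted p = 6.2e-05). Atp5a1, the α subunit of the same catalytic ring, was at 1196, 1266 and 1168 CPM in cKO and at 1028, 1007 and 1056 CPM in control libraries (log2 fold change 0.23 ± 0.04; adjusted p = 0.00153). Every cKO library exceeded every control library for both. Atp5c1, the central stalk γ subunit, did not pass, with 232, 223 and 206 CPM in cKO against 247, 240 and 241 CPM in control libraries (log2 fold change -0.14 ± 0.05; adjusted p = 0.0586).

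In the membrane part of the ATP synthase, Atp5l (subunit g) was at 75.0, 83.6 and 79.5 CPM in cKO and at 56.2, 59.0 and 57.8 CPM in control libraries (log2 fold change 0.46 ± 0.06; adjusted p = 0.000157). Atp5k (subunit e), which together with subunit g promotes dimers of the enzyme, was at 38.9, 41.2 and 35.6 CPM in cKO and at 28.7, 27.0 and 31.9 CPM in control libraries (log2 fold change 0.40 ± 0.09; adjusted p = 0.00516). The 3 genes Atp5g1, Atp5g2 and Atp5g3 encode the same mature c subunit of the rotor ring. Atp5g1 (log2 fold change 0.34 ± 0.08; adjusted p = 0.00673) and Atp5g3 (0.28 ± 0.06; adjusted p = 0.00367) were higher, and Atp5g2 had a log2 fold change of -0.02 ± 0.05 (adjusted p = 0.798). Of the peripheral stalk genes, Atp5o, Atp5h and Atp5j were higher by 0.31, 0.28 and 0.21 on the log2 scale, Atp5j sharing exonic bases with Gabpa on the opposite strand. Atp5f1, the stalk's subunit b, did not pass (log2 fold change 0.13 ± 0.05; adjusted p = 0.0558).

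**Figure D4:**
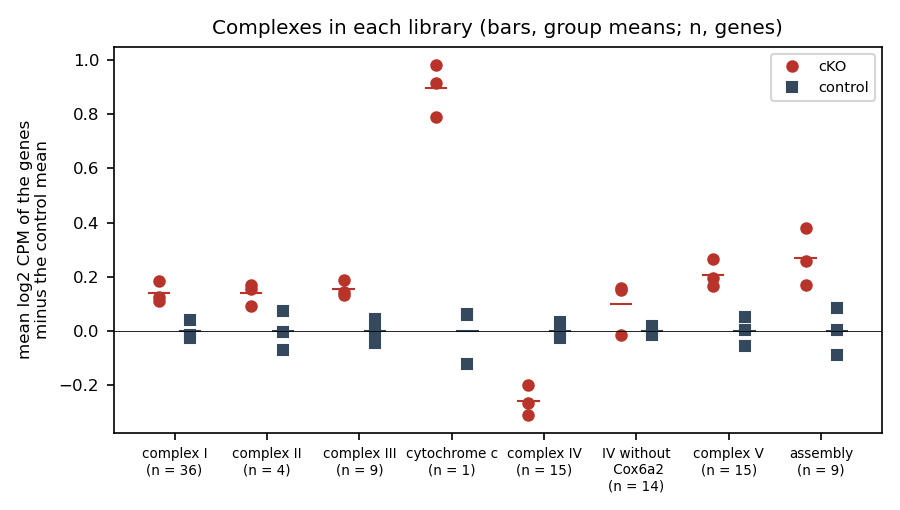
Mean log2 CPM over the tested genes of each complex, less the mean of the 3 control libraries (vertical axis), in each cKO (red circles) and control library (dark squares), with bars for group means. The 3 cKO libraries lie above the controls for complexes I, II, III, V, cytochrome c and the assembly group, and complex IV lies below the controls with Cox6a2 and overlaps them without it.

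Taking the mean log2 CPM over the genes of a complex in each library, with 0.1 CPM added, complex V was 0.19, 0.27 and 0.16 above the control mean in the cKO libraries, and control libraries spanned -0.05 to 0.05. Complex I was 0.13, 0.19 and 0.11 above, with controls from -0.03 to 0.04, and complex III was 0.14, 0.19 and 0.13 above, with controls from -0.04 to 0.04. Complex IV was the exception, at -0.31, -0.20 and -0.27, but its mean moved with isoforms of low level. Without Cox6a2 the cKO libraries were at -0.01, 0.16 and 0.15, and without Cox6a2, Cox6b2 and Cox7a1 they were at 0.04, 0.11 and 0.03, with controls from -0.04 to 0.02. The summed level of all 15 complex IV genes overlapped between the groups, at 1801, 1896 and 1803 CPM in cKO and 1852, 1812 and 1836 CPM in control libraries. These means are descriptions and were not tested.

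The 9 genes outside the finished complexes were mostly assembly factors of complex I. Of them 4 were higher (44.4%) and 1 was lower (11.1%), beside the same shares of all genes, 24.1% and 24.5%. Ndufaf4, which acts on the peripheral arm during assembly, was at 25.0, 30.1 and 29.2 CPM in cKO and at 12.7, 15.9 and 11.7 CPM in control libraries, a 2.10-fold difference (log2 fold change 1.07 ± 0.13; adjusted p = 0.0001). Ndufaf2, an assembly factor that is a paralogue of Ndufa12, was at 13.3, 13.1 and 14.8 CPM in cKO and at 7.18, 6.51 and 8.06 CPM in control libraries (log2 fold change 0.92 ± 0.13; adjusted p = 0.000196). Both members of this paralogous pair were therefore higher. Ndufaf6 was at 7.80, 10.8 and 10.4 CPM against 5.92, 5.57 and 7.60 CPM (log2 fold change 0.60 ± 0.18; adjusted p = 0.016), with cKO replicate 1 close to the highest control library. Its call was lost without cKO replicate 2 (adjusted p = 0.0688) or 3 (0.0507) and without control replicate 1 (0.0602) or 2 (0.0645). Ndufaf1 was higher by 0.33 on the log2 scale (adjusted p = 0.0367), a call lost without cKO replicate 2 (0.0792) or 3 (0.112) and without control replicate 1 (0.125) or 2 (0.0804), and Ndufaf3, Ndufaf5, Ndufaf7 and Atp5s did not pass. Atp5sl, now called Dmac2 and known as a complex I assembly factor, was lower at 35.9, 28.6 and 31.4 CPM against 42.1, 47.6 and 44.5 CPM (log2 fold change -0.48 ± 0.10; adjusted p = 0.00222).

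**Figure D5:**
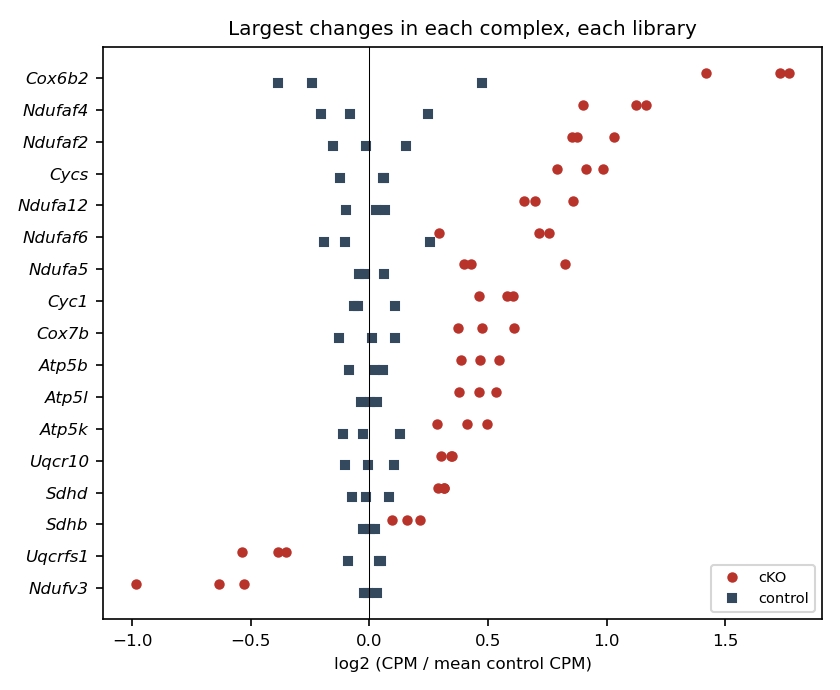
Log2 ratio of each library's CPM to the mean control CPM (horizontal axis) for the genes with the largest called changes in each complex, in 3 cKO (red circles) and 3 control libraries (dark squares), Cox6a2 being left out for scale. The groups are separate for every gene shown, and for Ndufaf6 and Sdhb they come nearest to touching.

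Promoter sequence was examined because the nuclear respiratory genes are known targets of NRF1, of the ETS factor GABP (NRF2) and of YY1. RefSeq windows from 250 bases before to 50 bases after the start (GRCm38.p6) were matched to 77 of the 94 genes by symbol or synonym. The letters GCGCATGCG (NRF1) were found on either strand in 11 of the 77 members, or 14.3%, and in 1.95% of 27025 genes with a window. The ETS core letters CCGGAAG were found in 17 members, or 22.1%, and in 9.93% of all genes, and the YY1 letters AAGATGGC were found in 11 members, or 14.3%, and in 3.19% of all genes. The 27025 genes include many that were not tested here, and they were not matched to the members in expression or base content. Among the 32 members with a window that were higher in cKO, 6 held the NRF1 letters, 9 the ETS core and 4 the YY1 letters. Among the 39 that did not pass, the counts were 5, 8 and 6, and among the 4 that were lower they were 0, 0 and 1. The NRF1 letters are nearly their own reverse complement, and a stretch of 10 letters that matched on both strands was counted once for its gene.

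Sequence before the RefSeq start is shown for 3 of the genes that were higher and that hold the NRF1 letters, given in capitals. They are cytochrome c, the gene with the largest called change in the assembly group, and an ATP synthase subunit. The stretches are 130 bases at chr6:50566570-50566699 (Cycs, minus strand), 130 bases at chr4:24897953-24898082 (Ndufaf4, plus strand) and 30 bases around the match at chr5:108434430-108434459 (Atp5k, minus strand) of GRCm38.p6, 5′ to 3′.
Cycs: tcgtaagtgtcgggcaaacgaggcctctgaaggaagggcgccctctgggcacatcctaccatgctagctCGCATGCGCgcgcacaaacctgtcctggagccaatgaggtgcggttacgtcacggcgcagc
Ndufaf4: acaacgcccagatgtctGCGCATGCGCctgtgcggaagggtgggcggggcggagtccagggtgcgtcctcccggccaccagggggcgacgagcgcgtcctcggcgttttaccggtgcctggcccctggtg
Atp5k: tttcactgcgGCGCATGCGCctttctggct
The letters began 61 bases before the RefSeq start in Cycs, 113 in Ndufaf4 and 50 in Atp5k. GENCODE M21 places the start of Atp5k farther upstream, at chr5:108434448, so that most of its capitals lie inside the annotated gene. Over the members, the first 30 bases after the RefSeq start lay in a same-strand GENCODE transcript for 63 of 81 windows compared. The factor genes themselves were measured in the same libraries. Of 13 regulators of respiratory gene expression, 6 were higher in cKO and none was lower, beside 24.1% and 24.5% of all genes. Nrf1 was higher by 0.36 ± 0.06 on the log2 scale (adjusted p = 0.000722), Yy1 by 0.44 ± 0.05 (adjusted p = 7.47e-05), and Gabpb1, the partner subunit of GABP, by 0.59 ± 0.08 (adjusted p = 0.000222), while Gabpa, the DNA-binding subunit, was at 0.02 ± 0.06 (adjusted p = 0.845). The largest change was in Ppargc1b, the coactivator PGC-1β, with 135, 350 and 250 counts in cKO and 92, 88 and 80 counts in control libraries (log2 fold change 1.42 ± 0.32; adjusted p = 0.00398).

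Genes that build or feed the chain but lie outside the symbol rule were examined as lists. Assembly factors of complex IV were higher in 8 and lower in 2 of 21 tested, with a median log2 fold change of 0.16, and the largest change was a fall in Cmc1, with a log2 fold change of -1.07 (adjusted p = 0.000606). In the same list Cox10, which makes the haem A precursor, was higher by 0.81 on the log2 scale (adjusted p = 0.000126). Complex I assembly factors outside the rule were higher in 3 and lower in 2 of 8, with Nubpl, which delivers iron-sulfur clusters, at -0.61 (adjusted p = 0.0057). For complex III, 2 of 6 assembly factors were higher and none was lower (Uqcc3 0.56, adjusted p = 0.00064), for complex V 2 of 4 were higher and none was lower (Tmem70 0.60, adjusted p = 0.000461), and for complex II none of 4 was higher and 1 was lower (Sdhaf4 -0.85, adjusted p = 0.00553). Of 3 ATP synthase genes with other symbols, Usmg5 was higher (0.34, adjusted p = 0.000873) and the inhibitor Atpif1 and 2010107E04Rik did not pass.

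Coenzyme Q synthesis, which makes the carrier that takes electrons from complexes I and II to complex III, was split. Of 13 genes 2 were higher and 3 were lower, and the median log2 fold change was -0.09. Coq8a, a kinase-like protein of the pathway, had the largest change, with 1016, 1066 and 1019 counts in cKO and 2323, 2249 and 2275 counts in control libraries (log2 fold change -1.23 ± 0.08; adjusted p = 2.45e-06). The TCA cycle had 5 of 13 genes higher and 3 lower, with the largest change in Mdh2, malate dehydrogenase (log2 fold change 0.30, adjusted p = 0.00112). These lists are given beside the 24.1% of all genes that were higher and the 24.5% that were lower.

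Transcript use within genes was compared from the deposited transcript counts, for 37 transcripts of 15 member genes (edgeR diffSpliceDGE, adjusted over 7646 transcripts). A difference was called for 1 transcript, against 0.615% of all transcripts tested. This was NM_001293559 of Cox4i1, with 63, 10 and 44 counts in cKO and 552, 505 and 622 counts in control libraries. It made up 0.231% ± 0.159 (SD, n = 3) of Cox4i1 counts in cKO and 3.35% ± 0.348 in control libraries (adjusted p = 0.0165). The call was lost without cKO replicate 3 (adjusted p = 0.0859) and without control replicate 1 (0.0592), 2 (0.0684) or 3 (0.074). Cox4i1 shares exonic bases with Emc8 on the opposite strand, which was higher in cKO (log2 fold change 0.44), and the strand setting was not given. Both Cox4i1 transcripts share a coding sequence and differ in that the first exon of NM_001293559 ends 20 bases later, at chr8:120668356-120668375 (GRCm38, plus strand), in the 5′ untranslated region. The site of the difference is shown for this reason: gtgacggccttggacggcgg. Atp5g1 also had 2 transcripts in unequal use, NM_007506 being 39.3% ± 19.9 of its counts in cKO and 14.4% ± 3.94 in control libraries, but the spread in cKO was wide and the difference did not pass (adjusted p = 0.565).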

How the data were processed

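Bulk RNA-seq of YFP+ iGCBs from 3 cKO and 3 control mice was used. Following their methods and processing notes, the authors trimmed the reads, ran HISAT2 and StringTie on mm10 and extracted estimated counts for genes and RefSeq transcripts with StringTie's own tool. The deposited expected counts are whole numbers. Tool versions, read length and the strand setting were not given in the sources used here. Library totals were 39079582 to 45504570 counts, and precision rests on these and on 3 mice per group.

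Genes were filtered with filterByExpr (minimum count 10), scaled by TMM and tested with edgeR 4.0.16 in R 4.3.3 (quasi-likelihood, cKO against control, Benjamini-Hochberg adjustment over 13296 genes, threshold 0.05). Errors of log2 fold changes are SE, the absolute value divided by the square root of F. Transcript use was tested with diffSpliceDGE over 7646 transcripts. CPM use TMM-scaled totals, and CPM per kilobase divide each transcript by its GENCODE M21 length. All 94 members were located in GENCODE M21 (GRCm38), Atp5sl as Dmac2. The tests were checked on simulated data. Alternatives were DESeq2 1.42.0 and its size factors, total counts, other count filters, a replicate block, Xist as a covariate and each library left out.

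Members, lists and promoter motifs were chosen with earlier results of these data known. Genes were named by rule: Eif3e, the 3 largest called changes per complex, core subunits, paralogues and the largest change of each list. Others named, such as Atp5sl, Ndufs5, the lesser called members, second genes of a list and Fbn1, were chosen after their values were seen. Promoter windows were matched for 77 members and not used for the others, among them Atp5a1, Cox4i1, Cox4i2, Cox6a2, Cox6c, Cox8c, Cyc1, Ndufa2, Ndufa4l2, Ndufaf6, Ndufb9, Ndufs1, Sdhc, Uqcrb, Uqcrc2 and Uqcrq. The result for 1 item is not reported here, and other members without a printed value are covered by counts and ranges. Each p measures the spread between cultures of separate mice.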

Additional observations from a re-analysis of the deposited data

How the results depend on the processing

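Across 13 alternatives to the gene test, 29 to 40 respiratory chain genes were higher in cKO and 4 to 6 were lower, the median log2 fold change was 0.09 to 0.14, and no called member changed direction. Leaving out a library gave 29 to 35 higher, 5 to 6 lower, 7 to 10 past 1.5-fold and a median of 0.0922 to 0.1395, and the lowest count of 29 came without cKO replicate 2 and without control replicate 2, where 34 of the 42 calls were kept. A test against a 1.5-fold change itself (glmTreat) called 5 genes in place of 8. Cox6a2 dropped out of the test when 10 counts were required in every library, since it had 4 and 0 counts in cKO. Of 830 values of 64 followed genes, 790 stayed on their side of the threshold, 38 lost a call and 2 gained one (Cox7a2 with 10 counts in every library, Atp5c1 without cKO replicate 1). Sdhb and Ndufab1 had adjusted p = 0.0676 and 0.0533 with a replicate block, which called 35 members higher and 5 lower, and 0 member transcripts in place of 1 (Cox4i1 adjusted p = 0.162). The calls of Ndufaf1, Sdhb and Ndufab1 were also lost with Xist as a covariate and with no filter on low counts, and that of Ndufaf1 with DESeq2. Same-numbered cKO and control libraries correlated at 0.00851, 0.0839 and 0.133 in their deviations from the group means, and not every library correlated best with its own number, so the numbers were not taken to pair mice. Transcript calls numbered 0 to 1 when a library was left out. In the 100 bases before the start alone, the NRF1 letters were in 6.49%, the ETS core in 13.0% and the YY1 letters in 2.60% of members, against 1.12%, 5.22% and 0.618% of all genes; the shorter window holds fewer positions. Differences in genes near 0 counts were beyond the depth of these libraries.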
